A study of Mus musculus with 40 samples.

Results

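The carnitine shuttle genes are 8 of the 20295 genes in the count table, chosen by symbol, with earlier results of these data known. They are *Cpt1a*, *Cpt1b*, *Cpt1c*, *Slc25a20*, *Cpt2*, *Crat*, *Crot* and *Slc22a5*. Their transcripts were measured by RNA sequencing in brown adipose tissue (BAT) of 40 male mice, with 5 mice in each of 8 groups. All 8 had enough counts to be tested. The study asked how BAT responds to *Gpr3* overexpression and to β3-adrenergic stimulation on chow and on high fat diet (HFD).

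C-3BO mice carry a *Gpr3* transgene at the *Rosa26* locus that *Ucp1*-Cre switches on in brown and beige adipocytes from early life. Their controls were littermates that lacked either the Cre or the transgene. This cohort was 13 to 19 weeks old and formed the groups chow control, chow C-3BO, HFD control and HFD C-3BO. The second cohort is labelled wildtype, and consisted of control littermates, 15 weeks old, of the inducible I-3BO line. It received CL, a selective β3-adrenergic agonist, at 1 mg/kg or saline on 9 consecutive days and formed the groups chow saline, chow CL, HFD saline and HFD CL. HFD held 60 kcal% fat and was fed for 7 days, and in injected mice it began after 2 days of injections. All mice were housed at 29 °C, and tissue was taken the day after the last injection.

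Long-chain fatty acids cross the inner mitochondrial membrane only as esters of carnitine. CPT1 on the outer membrane makes the acylcarnitine and is blocked by malonyl-CoA, the translocase encoded by *Slc25a20* exchanges it for free carnitine across the inner membrane, and CPT2 returns the acyl group to CoA in the matrix. Brown adipocytes burn fatty acids as the main fuel of UCP1-dependent heat production, and fatty acids released by lipolysis reach β-oxidation through this shuttle.

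Library totals lay between 849126 counts in HFD saline replicate 4 and 15260516 counts. The next lowest total was 3391730, in HFD CL replicate 3. The 12 libraries with the lowest totals were those of all HFD saline and HFD CL mice and of replicates 4 and 5 of HFD C-3BO mice. They held 62 to 1443 counts of the liver transcript *Alb* and 6 to 191 of the epididymal transcript *Lcn8*, against 0 to 14 and 0 in the other 28 libraries. Diet and this difference between libraries cannot be told apart in the injected cohort. *Gpr3* averaged 375 CPM (counts relative to the TMM-scaled total of the library) in chow C-3BO and 792 CPM in HFD C-3BO mice, and 0.388 and 0.335 CPM in their control groups. In the injected cohort chow CL replicate 3 held 99 *Gpr3* counts (9.15 CPM), against 2 to 6 counts in the other 4 chow CL mice. Without this library CL on chow gave log2 fold changes of 1.04 for *Slc25a20* and 0.75 for *Cpt2*, both called. All 6 brown adipocyte markers (*Ucp1*, *Cidea*, *Dio2*, *Elovl3*, *Cox7a1* and *Ppargc1a*) were present in every group.

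*Cpt2* and *Slc25a20* rose 1.72- to 2.50-fold with C-3BO and with CL on both diets. *Cpt1a* rose 1.5- to 1.98-fold on HFD in all 4 diet comparisons and was called higher with neither treatment. A gene was called when the p-value of edgeR's quasi-likelihood test, adjusted by the method of Benjamini and Hochberg over 13277 tested genes, was under 0.05. By this rule C-3BO changed 6 of the 8 genes on chow, 5 higher and 1 lower, where 31.6% of all tested genes were called, 15.8% higher and 15.9% lower. On HFD C-3BO raised 4 of 8, against 34.8% of all genes called, 19.3% higher and 15.5% lower. CL changed 4 of 8 on chow, 3 higher and 1 lower (15.3% of all genes, 9.16% higher and 6.13% lower), and raised 5 of 8 on HFD (23.5%, 12.7% higher and 10.8% lower). HFD changed 5 of 8 in control mice, 4 higher and 1 lower (32.9% of all genes, 15.4% higher and 17.5% lower), and 4 of 8 in C-3BO mice, 3 higher and 1 lower (25.7%, 13.5% higher and 12.2% lower). In injected mice HFD changed 2 of 8 with saline, 1 in each direction (15.5%, 7.45% higher and 8.04% lower), and raised 1 of 8 with CL (23.6%, 10.9% higher and 12.7% lower). Beyond a log2 fold change of 1, 1 gene was called higher with C-3BO on chow (2.37% of all genes) and 1 lower (4.81%), 1 was higher with C-3BO on HFD (4.34%), 1 with CL on chow (1.12%) and 2 with CL on HFD (2.06%). None was higher by as much on HFD in control (1.24%), C-3BO (2.42%), saline (2.17%) or CL mice (3.13%). The median log2 fold change of the 8 genes with treatment was 0.54 and 0.39 for C-3BO on chow and HFD, and 0.28 and 0.41 for CL, where the medians of all genes were between -0.03 and -0.01. Without HFD C-3BO replicates 4 and 5 the 4 genes raised by C-3BO on HFD had log2 fold changes of 1.36 (*Cpt2*), 0.97 (*Slc25a20*), 0.73 (*Crat*) and 0.67 (*Slc22a5*), and all 4 were called. Scaling by library totals alone, without TMM factors, shifted the median of all genes by -0.20 to 0.18 over the 8 comparisons.

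**Figure D1:**
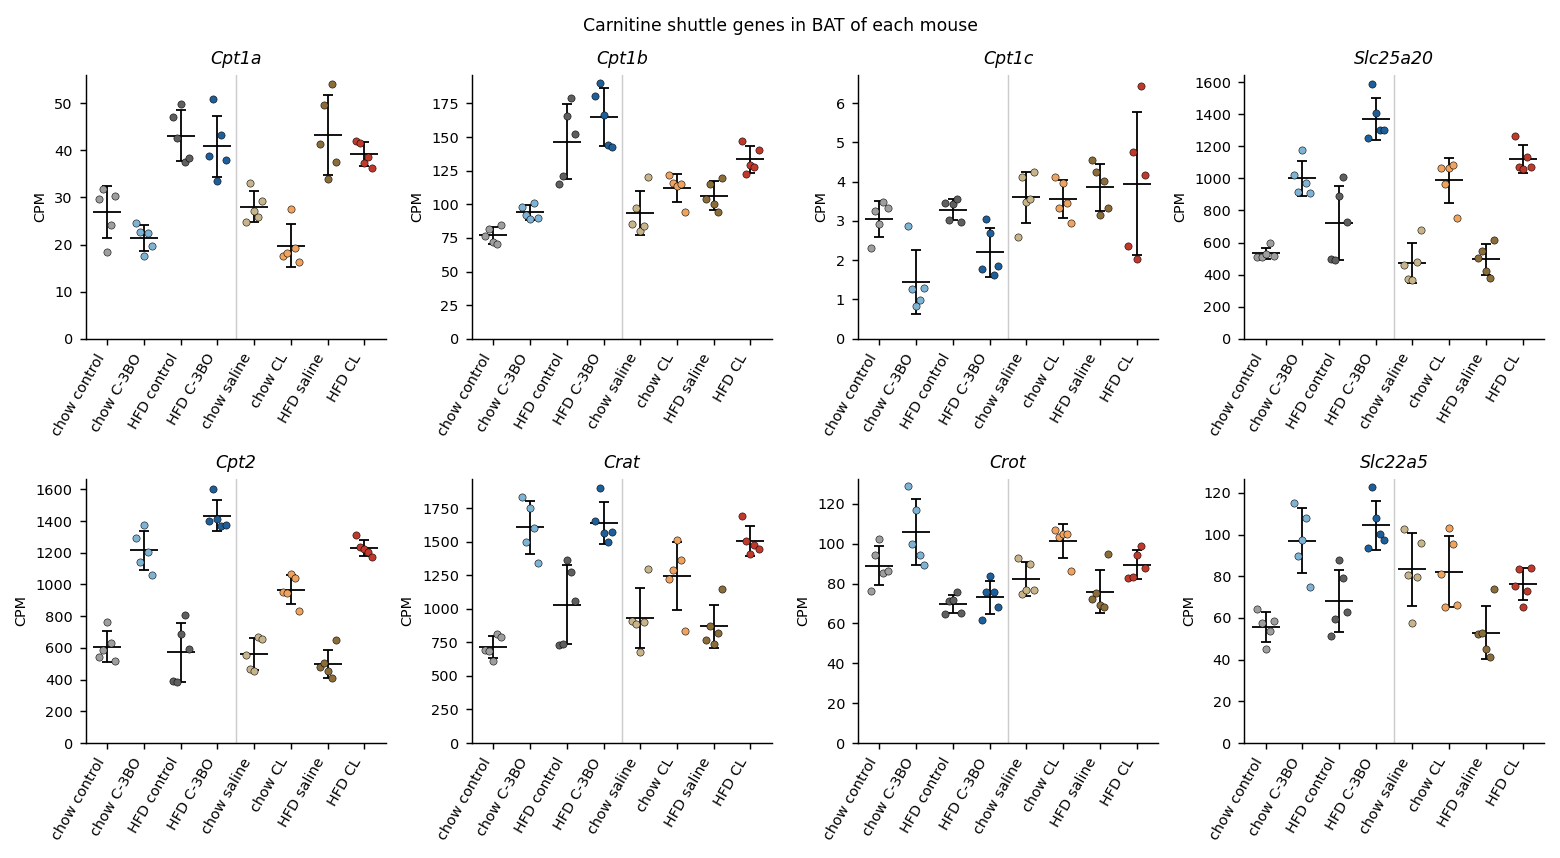
CPM of each carnitine shuttle gene on a linear axis from 0, with 1 point per mouse in 8 groups of 5, a bar for the mean and whiskers for the SD. *Cpt2* and *Slc25a20* stood higher in C-3BO and CL mice than in their controls on each diet, and *Cpt1a* in the 4 HFD groups lay above the 4 chow groups.

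**Figure D2:**
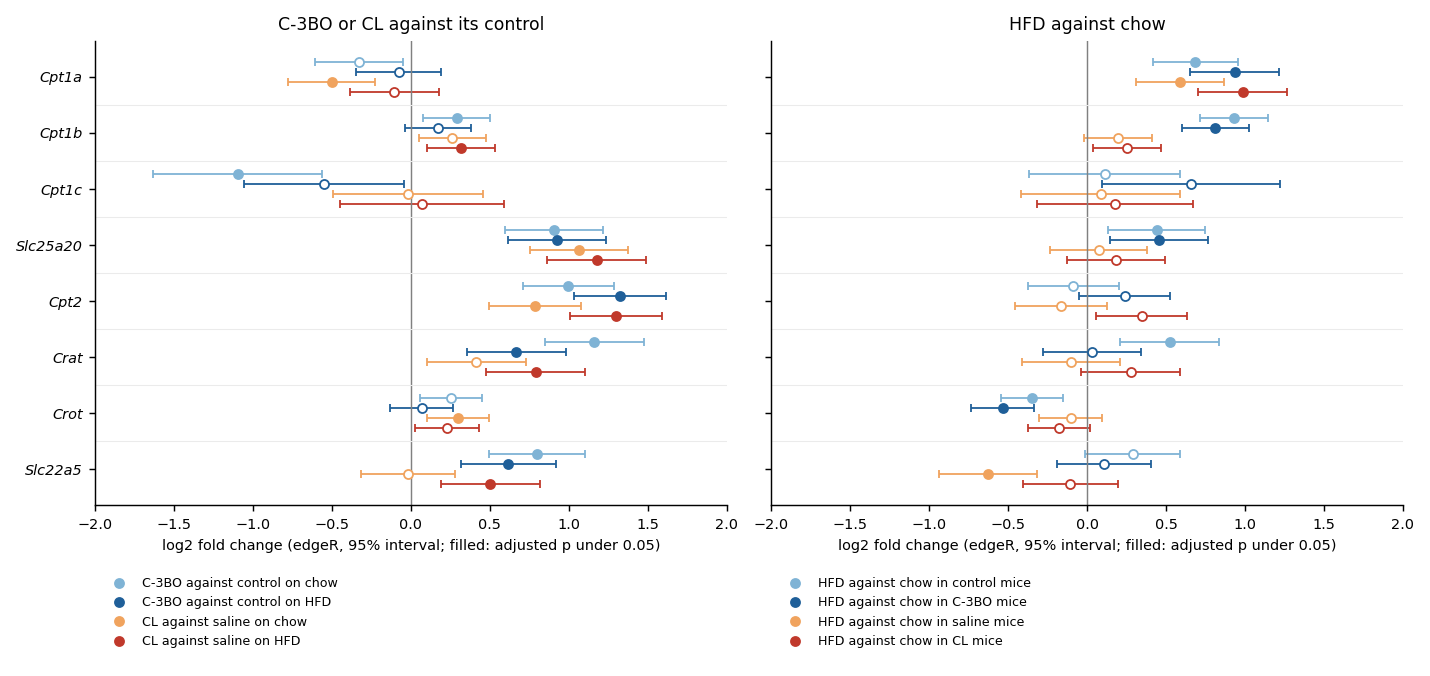
Log2 fold changes from edgeR with 95% intervals for each gene, with C-3BO or CL against its control at left and HFD against chow at right. Filled points have an adjusted p-value under 0.05. *Slc25a20* and *Cpt2* are filled in 4 of 4 comparisons at left, and *Cpt1a* in 4 of 4 at right.

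The 2 genes called with every treatment, and the gene called with every diet change, have entries in a RefSeq promoter table (GRCm38.p6, 250 bases before to 50 after the start of the gene, 5′ to 3′ on the gene's strand). They are shown because the first 2 moved together across mice and the third did not move with them. The windows are chr4:107923540-107923839 on the minus strand for *Cpt2*, chr9:108661886-108662185 on the plus strand for *Slc25a20* and chr19:3323051-3323350 on the plus strand for *Cpt1a*. Capitals mark CCGGAAG or its reverse complement, a core read by ETS-family factors, which the *Cpt1a* window does not hold and that of *Crot* does. This core was picked with the sequences in view, and its part in the levels of these genes was not tested.
Cpt2: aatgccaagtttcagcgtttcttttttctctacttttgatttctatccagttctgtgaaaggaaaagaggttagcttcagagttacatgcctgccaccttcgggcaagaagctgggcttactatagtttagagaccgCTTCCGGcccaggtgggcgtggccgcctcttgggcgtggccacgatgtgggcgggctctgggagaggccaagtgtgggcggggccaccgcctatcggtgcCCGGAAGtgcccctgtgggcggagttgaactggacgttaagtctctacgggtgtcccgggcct
Slc25a20: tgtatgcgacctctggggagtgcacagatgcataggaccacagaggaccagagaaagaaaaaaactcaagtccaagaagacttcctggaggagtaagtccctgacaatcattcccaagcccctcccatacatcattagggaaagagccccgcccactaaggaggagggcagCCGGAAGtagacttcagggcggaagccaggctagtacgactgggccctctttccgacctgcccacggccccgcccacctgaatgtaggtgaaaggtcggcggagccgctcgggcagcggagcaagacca
Cpt1a: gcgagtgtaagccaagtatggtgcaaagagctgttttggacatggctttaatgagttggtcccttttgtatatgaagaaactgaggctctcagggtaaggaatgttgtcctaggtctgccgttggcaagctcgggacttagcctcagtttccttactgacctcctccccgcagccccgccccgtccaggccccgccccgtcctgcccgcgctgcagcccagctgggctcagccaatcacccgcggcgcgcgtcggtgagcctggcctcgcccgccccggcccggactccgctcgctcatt

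Of the 8 genes, 6 had an entry in that table, and *Cpt1b* and *Crat* had none. The core CCGGAAG was found on either strand in 3 of the 6 promoters, those of *Cpt2* (2 matches), *Slc25a20* (1 match, 79 to 73 bases before the start) and *Crot* (1 match), and in 8.86% of the 32851 promoters of the table. The GC box GGGCGG was in 6 of 6 and in 35.7% of all. The core AGGTCA of nuclear receptor sites was in *Cpt1a* and *Cpt1c* and in 16.3% of all, and TGACG, the core of the cAMP response element, was in *Slc22a5* and in 20.8% of all. The direct repeat bound by PPARs (AGGTCA, any 1 base and AGGTCA again), TGACGTCA, the full cAMP response element, and TCAAGGTCA, the element bound by estrogen-related receptors, matched none of the 6 windows and 0.0396%, 1.79% and 0.423% of all promoters. AGGTCA lies within the first and last of these elements and TGACG within the second, and the motifs were picked with the promoter sequences in view.

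*Cpt1b* needs a remark on how it was counted. *Cpt1b* (NM_009948, mm9 chr15:89246836-89256293, minus strand) lies directly downstream of *Chkb*, which encodes choline kinase β. The deposited table gives it 150 counted exon bases, against 2895 exon bases in its 19-exon GENCODE transcript. Within the deposited span of the gene, the part of its exons that overlaps no exon of *Chkb* also comes to 150 bases. The annotation of *Chkb* includes a readthrough transcript over both genes. Which bases were counted is not given, and this part was taken for them. It consists of 65 of the 66 bases of exon 1, which is noncoding, and all 85 bases of exon 9, which is coding. Exon 9 (mm9 chr15:89252556-89252640, minus strand) is shown because it makes up most of this part.
Cpt1b exon 9: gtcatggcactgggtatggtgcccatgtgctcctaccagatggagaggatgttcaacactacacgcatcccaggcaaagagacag

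On this reading, reads elsewhere in *Cpt1b* were not in its counts, and the share they would have added is not known. The other 7 genes were counted over 93.6% to 103% of the exon bases of their longest GENCODE transcript. Only 127 of the 20295 genes, or 0.626%, had 150 counted bases or fewer. *Chkb* itself had 139 counted bases and was called in none of the 12 comparisons.

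**Figure D3:**
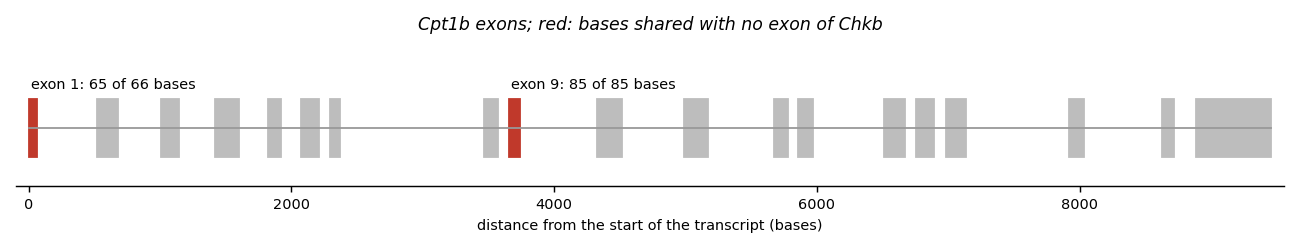
Exons of *Cpt1b* drawn to scale along the transcribed strand, with distance from the transcript start in bases. The 2 exons in red hold the 150 bases that overlap no exon of *Chkb* and were taken for the counted ones, 65 in exon 1 and 85 in exon 9. The 17 grey exons hold none of them.

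Among the 3 genes for CPT1, *Cpt1b* gave the most counts although it had the shortest counted length. *Cpt1b* encodes the isoform of muscle and BAT, *Cpt1a* the isoform of liver and most other tissues, and *Cpt1c* a neuronal protein of the endoplasmic reticulum with little transferase activity. Per kilobase of counted exon the median level over 40 mice was 767 CPM for *Cpt1b*, 7.74 CPM for *Cpt1a* and 1.18 CPM for *Cpt1c*. *Cpt1b* held a mean of 98.4% to 99.2% of the summed per-kilobase level of the 3 genes in each of the 8 groups. Because its level rests on 150 bases, this share is uncertain. Of the counts alone, with no division by length, *Cpt1b* held 69.4% to 82.8%.

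*Cpt1a* (NM_013495, mm9 chr19:3323301-3385733, plus strand) separated the diets. Its levels in replicates 1 to 5 were 29.7, 31.7, 18.4, 24.2 and 30.2 CPM in chow control mice and 47.1, 42.7, 49.9, 37.5 and 38.3 CPM in HFD control mice. In C-3BO mice they were 24.6, 22.6, 17.6, 22.5 and 19.8 CPM on chow and 38.8, 50.8, 33.5, 43.2 and 37.9 CPM on HFD. In neither genotype did the ranges of the diets overlap.

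In saline mice *Cpt1a* measured 24.9, 33.1, 27.2, 25.8 and 29.3 CPM on chow and 41.3, 49.6, 33.8, 54.1 and 37.5 CPM on HFD. The 54.1 CPM of HFD saline replicate 4, the library with the lowest total, rest on 54 counts. CL mice had 17.6, 18.3, 27.6, 19.2 and 16.2 CPM on chow and 42.0, 41.6, 37.2, 38.6 and 36.3 CPM on HFD. The lowest of the 20 HFD mice (33.5 CPM) was above the highest of the 20 chow mice (33.1 CPM). The summed level of 12 liver markers was 89.2 to 256 CPM in HFD saline and 143 to 287 CPM in HFD CL mice. It was 2.00 to 5.78 CPM in chow saline and 2.93 to 5.34 CPM in chow CL mice. In the C-3BO cohort it was 1.37 to 2.81 CPM in HFD control and 2.14 to 429 CPM in HFD C-3BO mice. The part of liver transcripts in the *Cpt1a* levels was not tested. By edgeR's quasi-likelihood test HFD raised *Cpt1a* by 0.68 on the log2 scale (standard error, SE, 0.14, adjusted p = 0.00017) in control, 0.93 (0.14, 8.2e-06) in C-3BO, 0.59 (0.14, 0.0043) in saline and 0.99 (0.14, 5e-06) in CL mice. Of all tested genes, 15.4%, 13.5%, 7.45% and 10.9% were called higher on HFD in these comparisons, and 9.45%, 8.45%, 4.09% and 8.38% had all HFD mice above all chow mice.

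On chow CL lowered *Cpt1a* by a log2 fold change of -0.50 (SE 0.14, adjusted p = 0.012), and the groups overlapped through CL replicate 3, the library with 99 *Gpr3* counts. Without it the change was -0.65 (adjusted p = 0.0013). The change with C-3BO on chow was -0.33 and was not called (adjusted p = 0.075), but without chow control replicate 3 it was -0.43 (adjusted p = 0.016) and with library totals alone -0.52 (adjusted p = 0.0078). On HFD the changes were -0.08 with C-3BO (95% interval -0.35 to 0.19) and -0.11 with CL (-0.39 to 0.18).

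*Cpt1b* also rose on HFD in the C-3BO cohort. It measured 76.1, 81.8, 71.6, 70.4 and 84.8 CPM in chow control and 115, 121, 165, 179 and 152 CPM in HFD control mice. C-3BO mice had 98.3, 92.2, 88.7, 101 and 89.6 CPM on chow and 180.5, 191, 167, 144 and 143 CPM on HFD. The diets did not overlap in either genotype, with log2 fold changes of 0.93 (SE 0.11, adjusted p = 5.2e-08) in control and 0.81 (0.11, 1.1e-06) in C-3BO mice.

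In the injected cohort *Cpt1b* was not called between the diets. Saline mice had 85.4, 97.0, 80.4, 84.1 and 120.4 CPM on chow and 104, 115, 100.1, 94.2 and 119.7 CPM on HFD, with overlapping ranges and a log2 fold change of 0.20 (95% interval -0.02 to 0.41), which was 0.37 and called with library totals alone (adjusted p = 0.012). CL mice had 121, 116, 113, 115 and 94.5 CPM on chow and 147, 123, 129, 128 and 140.2 CPM on HFD. These ranges did not overlap, and the log2 fold change of 0.25 missed the threshold (adjusted p = 0.088), though it passed at 0.023 when the 10 libraries were fitted alone and at 0.0027 with library totals alone. Whether the diet effect differed between the cohorts was not tested.

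With treatment *Cpt1b* moved little. All chow C-3BO mice were above all chow control mice, at a log2 fold change of 0.29 (SE 0.11, adjusted p = 0.040). The call did not hold without chow control replicate 1, 3 or 4 or chow C-3BO replicate 1, 2 or 4 (adjusted p from 0.053 to 0.091), nor with library totals alone (log2 fold change 0.10). On HFD all CL mice were above all saline mice, at 0.32 (0.11, 0.034), a call lost without HFD saline replicate 1, 3 or 4 or HFD CL replicate 1 or 5 (0.065 to 0.094), with no filter on low counts (0.066) and with library totals alone (0.17, adjusted p = 0.25). The changes with C-3BO on HFD (0.17) and with CL on chow (0.26) were not called, although the latter was called without chow saline replicate 5 or chow CL replicate 5.

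Skeletal muscle also expresses *Cpt1b*, and muscle transcripts varied between libraries. The summed level of 12 muscle markers, all present in the table, ranged from 983 to 11941 CPM in chow control, 487 to 4714 CPM in chow C-3BO, 6.48 to 278 CPM in HFD control and 7.79 to 93.2 CPM in HFD C-3BO mice. In injected mice the sum ranged from 14.7 to 3131 CPM in chow saline, 15.3 to 176 CPM in chow CL, 23.1 to 2590 CPM in HFD saline and 36.4 to 871 CPM in HFD CL mice. No muscle marker was at 0 in all mice of a group. The part of muscle transcripts in the differences of *Cpt1b* and of the other shuttle genes was not tested.

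*Cpt1c* (NM_001252470, mm9 chr7:52214742-52230221, minus strand) was near the limit of detection, with 4 to 50 counts per library. It measured 2.31, 3.24, 2.91, 3.47 and 3.33 CPM in chow control and 2.86, 1.27, 0.836, 0.996 and 1.29 CPM in chow C-3BO mice. The log2 fold change was -1.10 (SE 0.27, adjusted p = 0.0020), and the groups overlapped through C-3BO replicate 1. On HFD, C-3BO mice had 1.77, 3.05, 2.69, 1.63 and 1.84 CPM against 3.46, 3.02, 3.43, 3.55 and 2.98 CPM, which was not called (-0.55, adjusted p = 0.095) except with library totals alone (-0.72, adjusted p = 0.031). Between the diets *Cpt1c* was called in no genotype, but in C-3BO mice its change of 0.66 became 1.03 without chow C-3BO replicate 1 (adjusted p = 0.0077) and 0.83 with library totals (adjusted p = 0.026). Means in the injected groups were 3.56 to 3.95 CPM, with changes of -0.02 and 0.07 with CL. The summed level of 7 neuronal markers was 2.13 to 6.83 CPM in chow control and 2.99 to 7.30 CPM in chow C-3BO mice. Of these, *Syt1* was at 0 in all chow C-3BO, HFD control, chow saline and chow CL mice, and at most 0.112 CPM in chow control mice. From chow control to chow C-3BO mice the median of *Stmn2* went from 2.80 to 3.16 CPM. That of *Uchl1* went from 0.991 to 0.347 CPM, of *Tubb3* from 0.413 to 0.143 CPM and of *Th* from 0.101 to 0 CPM. The part of neuronal transcripts in the *Cpt1c* levels was not tested.

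*Slc25a20* (NM_020520, mm9 chr9:108564429-108586972, plus strand) encodes the carnitine-acylcarnitine translocase of the inner membrane. It measured 511, 511, 527, 596 and 518 CPM in chow control and 1021, 915, 1178, 973 and 911 CPM in chow C-3BO mice. On HFD it was 497, 492, 890.2, 1005 and 728 CPM in control and 1252, 1585, 1409, 1303 and 1299.8 CPM in C-3BO mice. On each diet all C-3BO mice were higher than all controls.

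Chow saline mice had 458, 372, 369, 479.7 and 679 CPM of *Slc25a20* and chow CL mice 1067, 964, 1066, 1084 and 753 CPM. HFD saline mice had 504, 550.0, 421, 381 and 617 CPM and HFD CL mice 1267, 1074, 1059, 1132 and 1071 CPM. Again the groups did not overlap, although chow CL replicate 5 lay well below the other 4 CL mice. The log2 fold changes from edgeR were 0.91 (SE 0.16, adjusted p = 3.3e-05) and 0.92 (0.16, 1.9e-05) with C-3BO on chow and HFD, and 1.07 (0.16, 1.1e-05) and 1.18 (0.16, 9.3e-07) with CL.

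With HFD *Slc25a20* was called higher in control (0.44, adjusted p = 0.029) and in C-3BO mice (0.45, adjusted p = 0.030). The call in control mice was lost without chow control replicate 1, 2, 3 or 5 or HFD control replicate 3, 4 or 5 (0.0504 to 0.16), and in the fit of these 10 libraries alone (0.086). In C-3BO mice it was lost without chow replicate 2, 4 or 5 or HFD replicate 2, 3 or 4 (0.052 to 0.10), without HFD replicates 4 and 5 together (0.055), and with no filter on low counts (0.052). In saline and CL mice the diet changes were 0.07 and 0.18 and were not called.

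*Cpt2* (NM_009949, mm9 chr4:107576587-107596194, minus strand) encodes the matrix transferase that completes the shuttle, and of the 8 genes it had the largest log2 fold changes with treatment on HFD. Chow control mice had 544, 586, 763, 630.2 and 518 CPM and chow C-3BO mice 1289.9, 1139, 1376, 1206 and 1061 CPM. HFD control mice had 389, 384, 687, 808 and 594 CPM and HFD C-3BO mice 1403, 1605, 1411, 1371 and 1372 CPM. On each diet the lowest C-3BO value was above the highest control value.

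Chow saline mice measured 558, 468, 456, 668 and 655 CPM of *Cpt2* and chow CL mice 949.7, 947, 1066, 1042 and 833 CPM. On HFD the values were 479, 503, 454, 412 and 647 CPM with saline and 1311, 1236, 1225, 1203 and 1175 CPM with CL. No treated mouse overlapped its controls. The fold changes were 2.00 with C-3BO on chow (log2 1.00, SE 0.15, adjusted p = 2.8e-06), 2.50 on HFD (1.32, 0.15, 1.1e-08), 1.72 with CL on chow (0.79, 0.15, 0.00025) and 2.46 on HFD (1.30, 0.15, 4.4e-08).

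Diet alone did not change *Cpt2* past the threshold. Its log2 fold change on HFD was -0.09 (95% interval -0.38 to 0.20) in control, 0.24 (-0.05 to 0.53) in C-3BO, -0.17 (-0.45 to 0.12) in saline and 0.35 (0.06 to 0.63) in CL mice. In CL mice the diets did not overlap and the adjusted p was 0.082, which became 0.0033 in the fit of these 10 libraries alone and 0.0027 with library totals. With library totals it also passed in C-3BO mice (log2 fold change 0.42, adjusted p = 0.010). In order of mean level, the 4 untreated groups from HFD saline to chow control overlapped with their neighbours, the step from chow control to chow CL did not, and HFD C-3BO stood apart above HFD CL.

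*Crat* (NM_007760, mm9 chr2:30255996-30271268, minus strand) encodes carnitine acetyltransferase, which buffers acetyl-CoA as acetylcarnitine. It measured 691, 684, 611, 813 and 786 CPM in chow control and 1833, 1501, 1754, 1600.0 and 1340.3 CPM in chow C-3BO mice. HFD control mice had 728, 734, 1359.8, 1271 and 1059 CPM and HFD C-3BO mice 1653, 1903, 1565, 1494 and 1574 CPM. C-3BO mice lay above controls on both diets without overlap, at log2 fold changes of 1.16 (SE 0.16, adjusted p = 8.5e-07) and 0.67 (0.16, 0.0011).

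CL raised *Crat* on HFD, from 768, 873, 734, 823 and 1144 CPM to 1691, 1503, 1409, 1472 and 1444 CPM (log2 fold change 0.79, SE 0.16, adjusted p = 0.00034). On chow, saline mice had 909, 883, 676, 898 and 1297 CPM and CL mice 1221, 1286, 1509, 1363 and 836 CPM. These groups overlapped through saline replicate 5 and CL replicate 5, and the change of 0.41 was not called (adjusted p = 0.071). Without saline replicate 5 or without CL replicate 5 it was called, at 0.53 to 0.56. HFD raised *Crat* in control mice (0.52, adjusted p = 0.010, and 0.061 without HFD control replicate 3) and left it at a change of 0.03 (95% interval -0.28 to 0.34) in C-3BO mice. In CL mice the diet change was 0.28 and was called only with library totals alone (0.45, adjusted p = 0.021).

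*Crot* (NM_023733, mm9 chr5:8966048-8997146, minus strand) encodes the peroxisomal carnitine octanoyltransferase, which hands chain-shortened acyl groups to carnitine. It was lower on HFD in the C-3BO cohort. Control mice had 76.3, 94.2, 102, 85.5 and 86.1 CPM on chow and 64.7, 71.5, 71.8, 75.6 and 65.1 CPM on HFD. C-3BO mice had 129, 99.9, 117, 94.1 and 89.5 CPM on chow and 61.9, 75.5, 83.9, 76.0 and 68.0 CPM on HFD. All HFD mice were below all chow mice in both genotypes, which 9.44% and 7.53% of tested genes showed, and the log2 fold changes were -0.35 (SE 0.10, adjusted p = 0.0064) and -0.53 (0.10, 0.00017). The former was -0.20 and not called with library totals alone (adjusted p = 0.092).

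In saline and CL mice the diet changes of *Crot* were -0.11 and -0.18 and were not called. CL on chow gave 107, 103, 105, 105 and 86.1 CPM against 92.8, 74.7, 76.6, 89.9 and 76.7 CPM, a log2 fold change of 0.30 (SE 0.10, adjusted p = 0.036). This call was lost without saline replicate 2, 3 or 5 or CL replicate 1, 2, 3 or 4 (0.069 to 0.12), with no low-count filter (0.080), in the fit of these 10 libraries alone (0.077) and with library totals (0.22). The changes with C-3BO on chow (0.25, adjusted p = 0.0505), with C-3BO on HFD (0.07) and with CL on HFD (0.23) were not called. The first of these was called without chow control replicate 2 or 3 or chow C-3BO replicate 4 or 5 (0.0230 to 0.05), and the last without HFD saline replicate 5 (0.020).

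*Slc22a5* (NM_011396, mm9 chr11:53678044-53705205, minus strand) encodes OCTN2, the sodium-coupled transporter that brings carnitine into the cell. Chow control mice had 64.2, 57.3, 44.9, 53.7 and 58.7 CPM and chow C-3BO mice 115, 89.8, 97.3, 108 and 74.9 CPM. On HFD control mice had 51.2, 59.4, 87.7, 79.2 and 62.9 CPM and C-3BO mice 93.3, 123, 108, 100.4 and 97.3 CPM. The genotypes did not overlap on either diet, at log2 fold changes of 0.80 (SE 0.15, adjusted p = 0.00013) and 0.62 (0.15, 0.0017).

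With CL on chow *Slc22a5* had 80.9, 65.2, 103, 95.3 and 66.3 CPM against 102, 80.6, 57.6, 79.5 and 95.9 CPM with saline, a change of -0.02 (95% interval -0.31 to 0.28). HFD saline mice had 52.1, 52.9, 45.1, 41.1 and 73.7 CPM and HFD CL mice 75.5, 83.5, 65.1, 73.1 and 84.1 CPM. On HFD the groups overlapped through saline replicate 5, and the increase with CL was 0.50 (SE 0.16, adjusted p = 0.020), lost without HFD saline replicate 3 (0.44, adjusted p = 0.069) and with library totals alone (0.37, adjusted p = 0.077). In control mice the change on HFD was 0.29 and was called only with library totals alone (0.44, adjusted p = 0.020). HFD lowered *Slc22a5* in saline mice, by a log2 fold change of -0.63 (0.16, 0.0059), with overlapping ranges. The summed level of the 3 macrophage markers in the table (*Cd68*, *Csf1r* and *Mrc1*) was 107 to 253 CPM in HFD saline against 43.2 to 99.4 CPM in chow saline mice, and its part in this result was not tested.

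Single genes were also compared by exact permutation of 5 against 5 mice, two-sided, in which the smallest p-value is 0.00794. Members without overlap between the groups numbered 5 for C-3BO on chow (18.4% of all tested genes), 4 for C-3BO on HFD (20.8%), 2 for CL on chow (9.4%) and 4 for CL on HFD (16.4%). Between the diets they numbered 3 in control (18.9%), 4 in C-3BO (16%), 1 in saline (9.03%) and 3 in CL mice (18.2%). The summed level of the 6 brown adipocyte markers, most of which came from *Ucp1* and *Cidea*, was 3923 to 5044 CPM in chow control and 8773 to 12212 CPM in chow C-3BO mice, 4484 to 12684 CPM in HFD control and 16153 to 19442 CPM in HFD C-3BO mice. It was 3213 to 4782 CPM in chow saline, 4813 to 12038 CPM in chow CL, 4205 to 5912 CPM in HFD saline and 11174 to 14928 CPM in HFD CL mice. With C-3BO on chow the markers did not move as 1 group. From chow control to chow C-3BO mice the median of *Ucp1* went from 1256 to 6390 CPM, of *Elovl3* from 31.5 to 436 CPM and of *Dio2* from 26.5 to 77.4 CPM. That of *Cidea* went from 2585 to 2486 CPM, of *Cox7a1* from 321 to 318 CPM and of *Ppargc1a* from 81.6 to 81.2 CPM. With C-3BO on HFD and with CL on both diets the medians of all 6 markers were higher than in the controls. For C-3BO on HFD *Cidea* went from 2151 to 2953 CPM and *Ppargc1a* from 66.2 to 76.4 CPM. In bulk tissue fewer cells of a type and less RNA per cell cannot be told apart, and the part of this sum in the members' changes was not tested.

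Differences between effects were tested as interaction terms in the same edgeR fit. None of the 8 genes differed between diets in its response to C-3BO (2.09% of all genes called) or to CL (0.0151%), with 1 and 2 members at an unadjusted p-value under 0.05 and none called by DESeq2. The CL response of *Cpt2* was 0.51 larger on HFD than on chow (95% interval 0.10 to 0.92, adjusted p = 0.43), that of *Slc22a5* was 0.52 larger (0.09 to 0.95, adjusted p = 0.46), and the C-3BO response of *Crat* was smaller on HFD by 0.49 on the log2 scale (interval -0.93 to -0.05, adjusted p = 0.27). On chow, *Crat* responded more to C-3BO than to CL by 0.75 (SE 0.22, adjusted p = 0.038) and *Slc22a5* by 0.81 (0.22, 0.018), 2 of 8 genes where 6.24% of all genes were called. The *Crat* difference was lost without chow control replicate 1, 2 or 3, chow C-3BO replicate 1 or 4, chow saline replicate 5 or chow CL replicate 1, 2 or 5 (0.054 to 0.093). *Cpt1c* differed by -1.08 (adjusted p = 0.067), called without chow C-3BO replicate 1 (-1.45, 0.011) and by DESeq2 (0.047). With the replicate number as a block the *Crat* difference had an adjusted p of 0.052.

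On HFD no member differed between the C-3BO and CL responses (1.8% of all genes called, and 0 members at an unadjusted p-value under 0.05 or called by DESeq2). The difference was 0.03 (95% interval -0.38 to 0.43) for *Cpt2*, -0.25 (-0.69 to 0.18) for *Slc25a20* and -0.12 (-0.56 to 0.32) for *Crat*. The 2 treatments came from separate cohorts, so the treatments and the cohorts cannot be told apart in these differences.

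Of the 8 groups, HFD control mice had the largest SD for *Cpt1b*, *Cpt2*, *Slc25a20* and *Crat*. Replicates 1 and 2 had 389 and 384 CPM of *Cpt2*, 497 and 492 CPM of *Slc25a20* and 728 and 734 CPM of *Crat*, and replicates 3 to 5 had 594 to 808, 728 to 1005 and 1059 to 1359.8 CPM. *Ucp1* was 2573 and 2701 CPM in the former and 5255, 9442 and 4544 CPM in the latter. *Cpt1a*, at 47.1 and 42.7 CPM against 37.5 to 49.9 CPM, did not split in this way.

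Across the 40 libraries the log2 CPM of *Cpt2*, *Slc25a20* and *Crat* varied together. Pearson's r was 0.94 for *Cpt2* with *Slc25a20*, 0.91 for *Slc25a20* with *Crat* and 0.89 for *Cpt2* with *Crat*. After each group's mean was subtracted, r was 0.88, 0.87 and 0.75, so mice of the same group also varied together. *Slc22a5* had r = 0.81 with *Crat*. *Cpt1a* had r = -0.19 with *Cpt2* and -0.69 with *Crot*, and -0.21 and -0.19 within groups. These are descriptions over libraries that share groups, cohorts and depth.

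**Figure D4:**
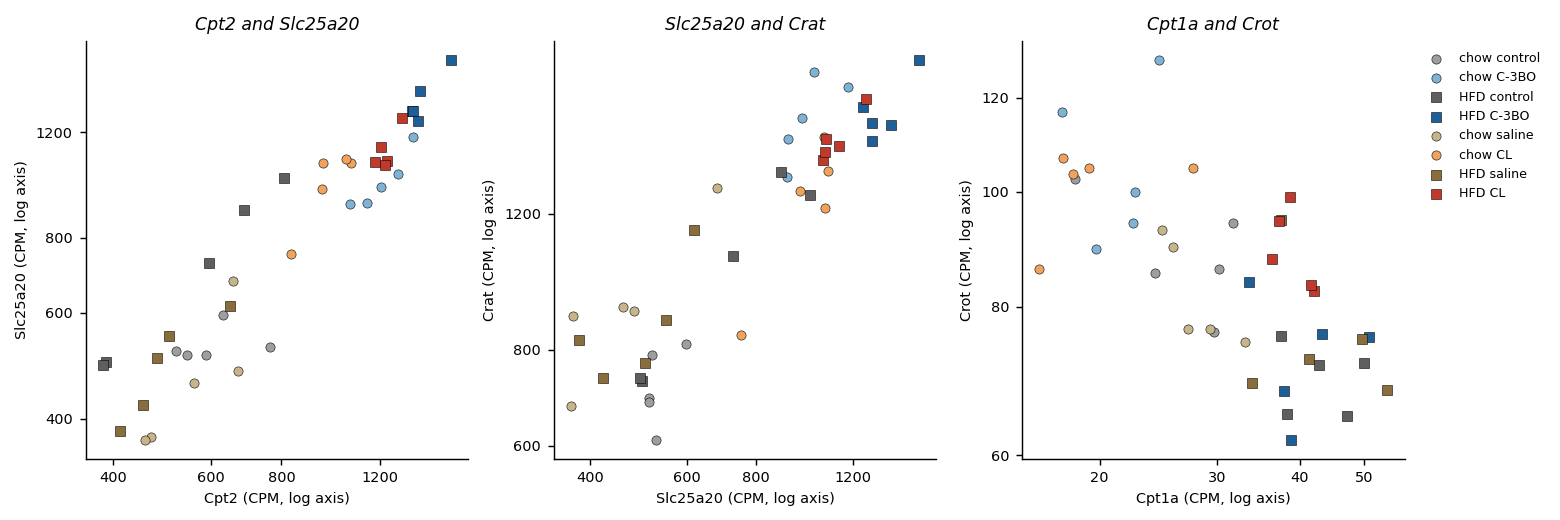
CPM of pairs of shuttle genes on logarithmic axes, with 1 point per mouse, circles for chow and squares for HFD. *Cpt2*, *Slc25a20* and *Crat* rise together, with most untreated mice at lower left and HFD C-3BO and HFD CL mice at upper right, although untreated HFD control replicates 3 and 4 had more *Slc25a20* and *Crat* than CL-treated chow replicate 5, and for *Cpt1a* against *Crot* all HFD mice lie to the right of all chow mice.

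For each gene the 3 transcripts with the highest r in log2 CPM over 40 libraries were listed among the 13277 tested. *Letmd1* (r = 0.98), *Abcd3* and *Mtch2* were closest to *Cpt2*, and *Etfdh* (0.97), *Dlst* and *Eci2* to *Slc25a20*. *Acsl1* (0.95), *Apmap* and *Cluh* were closest to *Crat*, and *Pdp2* (0.92), *Ppp1r15b* and *Ehhadh* to *Slc22a5*. The lists were *Cntfr* (0.88), *Ly6e* and *Gpr56* for *Cpt1a*, *Sipa1l1* (0.88), *Tbc1d20* and *Ppm1m* for *Cpt1b*, *Gpd2* (0.81), *Pdk1* and *Psme4* for *Crot*, and *Pgm5* (0.80), *Sin3a* and *Cdr2l* for *Cpt1c*. Over the 28 libraries without the 12 of low total, the first of each list had r between 0.77 and 0.98.

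The steps before and after the shuttle were followed with lists of pathway genes. Of 16 genes of mitochondrial β-oxidation, 11 rose with C-3BO on chow, 12 with C-3BO on HFD, 13 with CL on chow and 14 with CL on HFD, and none fell. Of all tested genes 15.8%, 19.3%, 9.16% and 12.7% were called higher. *Acadm*, the medium-chain acyl-CoA dehydrogenase, changed by 0.94, 0.68, 0.70 and 0.85 on the log2 scale in that order, and *Etfdh*, which passes electrons from the dehydrogenases to ubiquinone, by 1.07, 0.84, 0.95 and 0.89. *Decr1* and *Eci2*, which handle unsaturated chains, changed by 0.78 and 0.63 with C-3BO on chow and by 1.22 and 0.84 with CL on HFD. With HFD 4, 6, 1 and 3 of the 16 rose in control, C-3BO, saline and CL mice, where 15.4%, 13.5%, 7.45% and 10.9% of all genes were called higher, and *Etfb* fell in CL mice (-0.36). The median of the list was 0.40 to 0.67 with treatment and 0.05 to 0.23 with diet.

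Of the 3 enzymes that set malonyl-CoA, the inhibitor of CPT1, *Acacb* and *Mlycd* were called with every treatment and *Acaca* with none, and *Acaca* and *Acacb* were called lower in every diet comparison. Of all tested genes 15.8% and 19.3% were called higher with C-3BO on chow and HFD, and 9.16% and 12.7% with CL. On HFD 17.5%, 12.2%, 8.04% and 12.7% were called lower in control, C-3BO, saline and CL mice, and 15.4%, 13.5%, 7.45% and 10.9% higher. *Acacb*, the acetyl-CoA carboxylase of the mitochondrial surface, rose with C-3BO (log2 fold change 0.92 on chow and 0.83 on HFD) and with CL (0.46 and 0.66). HFD lowered it by -0.52 in control, -0.61 in C-3BO, -1.39 in saline and -1.19 in CL mice. *Acaca*, the cytosolic carboxylase of fatty acid synthesis, fell on HFD by -2.41, -3.38, -2.01 and -2.62, from 1342 ± 269 CPM (SD, n = 5) in chow control to 253 ± 164 CPM in HFD control mice. *Mlycd*, which breaks malonyl-CoA down, rose with each treatment (0.90, 1.03, 0.67 and 0.87) and on HFD in control (0.38), C-3BO (0.51) and CL mice (0.41), but was not called in saline mice (0.20).

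Of 5 acyl-CoA synthetases, which activate fatty acids before the shuttle, 3, 3, 2 and 3 rose with C-3BO on chow and HFD and with CL on chow and HFD (15.8%, 19.3%, 9.16% and 12.7% of all genes), and none fell. *Acsl1* rose with C-3BO by 1.42 on chow and 0.56 on HFD and with CL on HFD by 0.79, and was not called with CL on chow (0.38). *Acsl5* rose by 1.5, 1.65, 2.07 and 2.03 and fell on HFD in all 4 diet comparisons by -1.97, -1.82, -1.31 and -1.34. *Acsl3* rose by 1.09, 1.41, 0.87 and 1.16. With HFD 4 of the 5 fell in control and in C-3BO mice, where 17.5% and 12.2% of all genes were called lower, and 1 of 5 fell in saline and in CL mice (8.04% and 12.7%). In control mice 1 of 5 was called higher on HFD (15.4% of all genes), and in C-3BO, saline and CL mice none was. The mean of *Acsl1* on chow and HFD was 1436 and 2824 CPM in control and 3832 and 4157 CPM in C-3BO mice. It was 1950 and 1998 CPM in saline and 2539 and 3464 CPM in CL mice.

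Of 11 genes of peroxisomal fatty acid oxidation, 8, 8, 5 and 6 rose and 1, 0, 1 and 1 fell with C-3BO on chow and HFD and with CL on chow and HFD. Of all genes 15.8%, 19.3%, 9.16% and 12.7% were called higher and 15.9%, 15.5%, 6.13% and 10.8% lower. The gene that fell was *Abcd2*, an importer of very long-chain acyl-CoA (-0.90 with C-3BO on chow, -0.95 and -0.71 with CL). *Ehhadh*, the peroxisomal bifunctional enzyme, rose with C-3BO by 3.54 on chow and 2.45 on HFD and was not called with CL (-0.31 and 0.81). *Acaa1b*, a peroxisomal thiolase, rose by 2.87, 2.98, 1.46 and 2.54, and *Abcd3*, a peroxisomal importer, by 0.80, 1.27, 0.87 and 1.36. On chow *Ehhadh*, *Acaa1b* and *Decr2* responded more to C-3BO than to CL, as did 2.83% of all genes.

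The table held 5 of 6 genes of carnitine synthesis and other carnitine transport, and 4 were tested, *Tmlhe* and *Bbox1* not being among them. With C-3BO on chow and HFD and CL on chow and HFD, 1 of 4 rose each time and 1, 1, 0 and 1 fell. Of all genes 15.8%, 19.3%, 9.16% and 12.7% were called higher and 15.9%, 15.5%, 6.13% and 10.8% lower. The list medians were -0.56, -0.68, -0.04 and -0.41. On HFD 1 of 4 fell in saline and in CL mice (8.04% and 12.7% of all genes). None was called in control or C-3BO mice. *Aldh9a1*, an aldehyde dehydrogenase of carnitine synthesis, rose with each treatment (log2 fold change 0.89, 0.71, 0.46 and 0.63). *Slc22a4*, a transporter related to *Slc22a5*, fell with C-3BO by -1.56 on chow and -1.36 on HFD and with CL on HFD by -1.06, and was not called with CL on chow (-0.49). Its mean level was 10.0 CPM in chow control and 3.36 CPM in chow C-3BO mice.

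**Figure D5:**
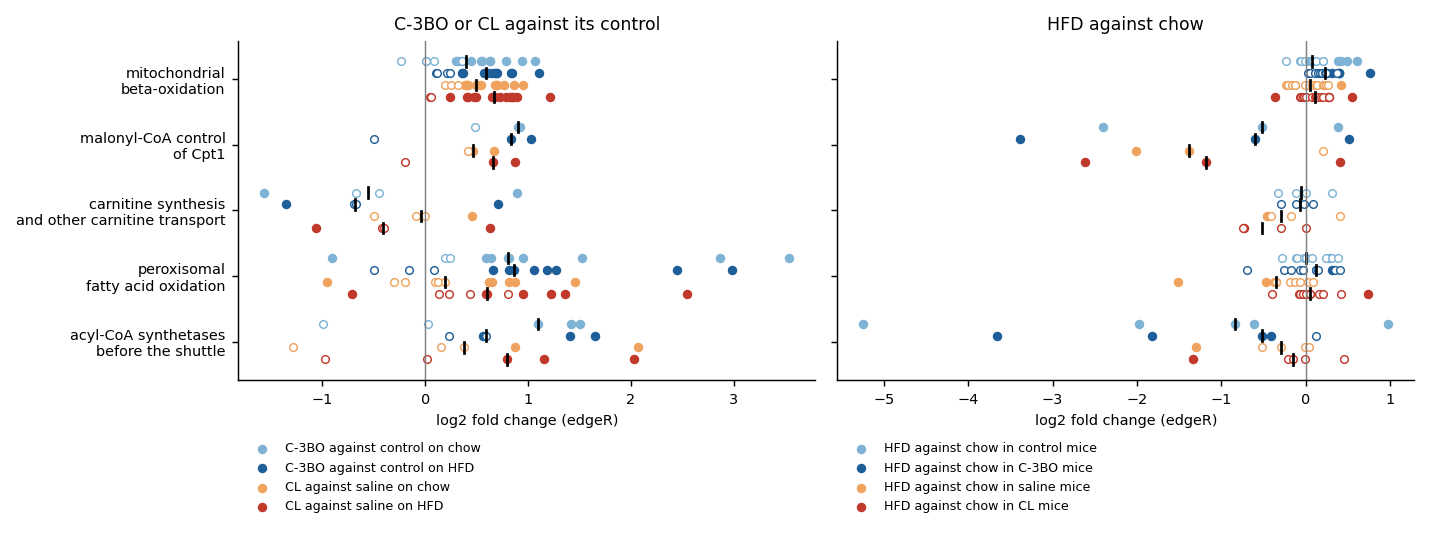
Log2 fold changes from edgeR of the tested genes of 5 lists around the shuttle, with C-3BO or CL against its control at left and HFD against chow at right, 1 row of points per comparison. Filled points have an adjusted p-value under 0.05 and black ticks are medians. The medians of the β-oxidation list lie above 0 with treatment, and those of the malonyl-CoA and synthetase lists lie below 0 on HFD.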

How the data were processed

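BAT poly(A) RNA of 40 mice was sequenced. Reads were mapped by the authors with STAR (mm9), organised in HOMER tag directories and summed with iRNA-seq over the exons of each RefSeq gene. Raw counts were deposited by the authors, and versions, strandedness and filters are not given in the sources used here. The members and the gene lists were chosen with earlier results of these data known. Genes were filtered with filterByExpr (minimum count 10) over the 8 groups, scaled with TMM factors and fitted in edgeR 4.0.16 with 1 mean per group over all 40 libraries. Standard errors are the log2 fold change divided by the square root of F, and intervals are 1.96 standard errors wide on each side. Named list genes are up to 4 called genes per list with the largest change with treatment on HFD, and all 3 malonyl-CoA genes. One gene that this rule names is not reported here. *Etfb*, *Abcd2* and *Decr2* were named after their values were seen. Alternatives were library totals, RLE factors, no filter, DESeq2 1.42.0, the compared libraries alone, a replicate block, and each replicate left out. The edgeR and DESeq2 steps were tested on simulated counts. Counting error alone puts the smallest visible level at 3 counts. Replicate numbers were not treated as pairs in the main fit. No 2 libraries of a group agreed within sampling noise (chi-square per degree of freedom at least 2.81 in 80 pairs). The labels do not say whether mice of a group shared a litter, and p-values measure the spread between these samples. The deposited start is numbered from 0, and 1 was added. R 4.3.3, Python 3.11.15, SciPy 1.17.1 and matplotlib 3.10.9 were used.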

Additional observations from a re-analysis of the deposited data

Results flagged for a closer look

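Of 64 sets of 5 mice (8 genes in 8 groups), 6 had a mouse far from the other 4 by Dixon's criterion, and chance gives about 1 in 20. *Cpt2* was 1605 CPM in HFD C-3BO replicate 2, where the next highest was 1411 CPM. *Slc25a20* was 596 CPM in chow control replicate 4, next to 527 CPM. *Cpt1a* was 27.6 CPM in chow CL replicate 3, next to 19.2 CPM, and this mouse lay within the range of chow saline mice. *Cpt1c* was 2.86 CPM in chow C-3BO replicate 1, next to 1.29 CPM.

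*Crot* was 86.1 CPM in chow CL replicate 5, below the next lowest of 103 CPM, and 94.6 CPM in HFD saline replicate 5, above the next highest of 75.2 CPM. Chow CL replicate 5 was also the lowest of its group for *Cpt1b*, *Cpt2*, *Slc25a20* and *Crat*, and its summed brown adipocyte markers, at 4813 CPM, were the lowest of the chow CL mice.

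The responses to C-3BO and CL on chow differed for *Crat*, by 0.75 on the log2 scale (edgeR adjusted p = 0.038), and for *Slc22a5*, by 0.81 (adjusted p = 0.018). *Crat* was higher in 5 of 5 chow C-3BO mice than in any chow control mouse.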

How the results depend on the processing

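By the rule of adjusted p alone, *Cpt2* and *Slc25a20* were called higher with C-3BO and CL on both diets under each alternative fit. *Cpt1a* was likewise called higher on HFD in all 4 diet comparisons. With each library left out in turn, the number of the 8 genes called was 5 to 7 and 4 to 4 for C-3BO on chow and HFD, 3 to 6 for CL on each diet, 3 to 5 for diet in control and in C-3BO mice, 2 to 2 in saline and 1 to 1 in CL mice, 1 to 2 for C-3BO minus CL on chow and 0 to 0 for the other 3 differences. With a log2 fold change beyond 1 also required, the counts were 2 and 1 for C-3BO, 1 and 2 for CL on chow and HFD, and 0 in the 4 diet comparisons. With library totals alone 3 genes were called for CL on HFD and 4 for diet in CL mice, and with the compared groups fitted alone 3 for the latter. The causes were not tested.

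In no comparison did all 5 same-numbered pairs deviate together (mean r -0.14 to 0.17), but for C-3BO on chow 3 of 5 had r over 0.1. Whether replicate numbers pair some samples is not known. With the replicate block the count for C-3BO minus CL on chow was 1, and no other call changed. Of the counts alone, *Cpt1b* held 72.2%, 80.5%, 75.6%, 79.3%, 74.5%, 82.8%, 69.4% and 75.5% of the 3 CPT1 genes in chow control, chow C-3BO, HFD control, HFD C-3BO, chow saline, chow CL, HFD saline and HFD CL mice.

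Signs turned only where a gene was not called. With library totals these were *Crot* with C-3BO on HFD (-0.10), *Cpt1c* with CL on HFD (-0.068), *Cpt2* with HFD in control mice (0.050), *Cpt2* (0.016), *Crat* (0.076) and *Crot* (0.069) with HFD in saline mice, *Slc22a5* with HFD in CL mice (0.067), and *Cpt1b* for C-3BO minus CL on chow (-0.020). Without the low-count filter *Slc25a20* turned for C-3BO on HFD minus chow (-0.028), and without HFD C-3BO replicates 4 and 5 *Cpt1b* did (9.7e-05). With 1 library left out the ranges crossed 0 for CL on chow in *Cpt1c* (-0.12 to 0.051) and *Slc22a5* (-0.14 to 0.060), for CL on HFD in *Cpt1c* (-0.18 to 0.22), for diet in control mice in *Cpt2* (-0.25 to 0.033), in C-3BO mice in *Crat* (-0.052 to 0.079), in saline mice in *Slc25a20* (-0.011 to 0.24) and *Crat* (-0.21 to 0.046), and in CL mice in *Cpt1c* (-0.071 to 0.32). Among the differences they did so for C-3BO on HFD minus chow in *Slc25a20* (-0.13 to 0.14), for CL on HFD minus chow in *Cpt1b* (-0.054 to 0.12), *Cpt1c* (-0.16 to 0.24), *Slc25a20* (-0.057 to 0.22) and *Crot* (-0.13 to 0.043), for C-3BO minus CL on chow in *Cpt1b* (-0.082 to 0.11) and *Crot* (-0.13 to 0.018), and on HFD in *Cpt1a* (-0.070 to 0.11), *Cpt2* (-0.11 to 0.17) and *Slc22a5* (-0.051 to 0.21). Depth limits *Cpt1c* most, at 4 to 50 counts a library.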
